A study of Mus musculus with 9 samples.

Results

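Motile cilium genes were defined by name in a table of gene expression from 3 kinds of mouse brain cells. They were all genes whose symbol is Dnah, Dnai, Dnaaf, Drc, Cfap, Rsph or Spag followed by a number and any letters, together with Foxj1 and Tmem212. The rule found 57 of the 14771 named genes, in 58 rows of the table, and used no measured value. No gene of the Dnai stem, the intermediate chains of dynein, was among them. The group had been described as an ependymal programme, and that description was checked against marker genes below.

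Motile cilia are the beating hairs of the cells that line the brain ventricles, the airways and the oviduct, and the sperm tail is built on the same plan. Their core, the axoneme, holds a ring of doublet microtubules around a central pair. Dynein motors on the doublets, the outer and inner arms, make the doublets slide, while radial spokes, the central pair and the nexin-dynein regulatory complex turn sliding into a regular bend. The arms are put together in the cytoplasm by assembly factors before they enter the cilium. Foxj1, a forkhead transcription factor, is the regulator that switches on most of this machinery in multiciliated cells, together with RFX factors that bind a promoter motif called the X-box. In the brain this combination is best known from ependymal cells, and most astrocytes carry instead a primary cilium without dynein arms.

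The data are RNA sequencing of 9 libraries in 3 groups of 3. The AG group holds astroglia from brain cells of the C57BL/6 strain, with a genotype label of p53 DN and an Nf1 shRNA. The BS and OB groups hold brain tumour cells of the brainstem and of the olfactory bulb, from a mixed 129 and C57BL/6 background, with Foxr2 overexpression and p53 cko. Foxr2 is another forkhead factor, and all 3 groups thus carry a change in p53, of a different kind in AG than in the tumour cells. The labels give no age, no promoter or Cre driver, and no statement on whether the libraries of a group are separate animals or cultures. A p-value here is thus set against the variation among these libraries, part of which may be technical. Strain, genotype and tumour state differ together between AG and both tumour groups, so that their parts in a difference cannot be told apart. Libraries are named by their titles: AG_1 to AG_3 for astroglia, BS_287, BS_295 and BS_296 for the brainstem, and OB_257, OB_287 and OB_295 for the olfactory bulb. Reads counted in the rows of the table ran from 14987773 to 19868282 per AG library and from 12680832 to 15282668 per BS library. For OB libraries they ran from 11300273 to 13927771. Reads outside these rows are not included. Values are normalized reads, that is reads divided by 1 size factor per library, and 1 read was worth 0.834 to 1.11 of them.

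A half-site of the X-box, here called the X-box core, was searched for in the promoters, since the X-box is what many genes of the axoneme share. RefSeq promoter windows of build GRCm38.p6, from 250 bases before to 50 bases after the start of the gene (300 bases), were at hand for 49 of the 57 members, and for none of Foxj1. The X-box core GTTGCC, read on both strands, stood in the windows of 21 members (42.9%) and of 1655 of 11359 genes of the table (14.6%). The forkhead core TGTTTAC, read on both strands, stood in the windows of 3 members (6.12%) and of 334 of the 11359 genes (2.94%). Overlapping windows of 1 gene counted once, the members held 31 copies of the X-box core, 15 of them within 100 bases before a start. A match of so few letters is a description of the sequence and not a bound site. The windows of 4 members with different behaviour are printed here, 5′ to 3′ on the strand of the gene, in lower case with the X-box core in capitals, as GTTGCC or as its reverse complement GGCAAC. Cfap44 (chr16:44394549-44394848, plus strand) and Dnah7b (chr1:46066603-46066902, plus strand) were lower in OB than in AG. Cfap46 (chr7:139683766-139684065, minus strand) was higher in both tumour groups. Tmem212 (chr3:27896319-27896618, minus strand) was read in AG alone, and its window holds neither core.
Cfap44: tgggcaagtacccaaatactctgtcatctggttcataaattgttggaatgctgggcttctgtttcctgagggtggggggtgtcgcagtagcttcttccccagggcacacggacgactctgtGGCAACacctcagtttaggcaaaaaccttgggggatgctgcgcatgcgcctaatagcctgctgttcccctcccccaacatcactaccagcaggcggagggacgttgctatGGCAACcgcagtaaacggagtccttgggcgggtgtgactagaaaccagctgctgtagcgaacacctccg
Dnah7b: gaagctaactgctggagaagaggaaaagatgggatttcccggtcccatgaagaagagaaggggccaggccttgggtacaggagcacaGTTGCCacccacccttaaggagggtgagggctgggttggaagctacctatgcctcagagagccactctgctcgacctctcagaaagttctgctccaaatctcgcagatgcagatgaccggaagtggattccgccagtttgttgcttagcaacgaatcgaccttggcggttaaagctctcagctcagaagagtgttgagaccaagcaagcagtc
Cfap46: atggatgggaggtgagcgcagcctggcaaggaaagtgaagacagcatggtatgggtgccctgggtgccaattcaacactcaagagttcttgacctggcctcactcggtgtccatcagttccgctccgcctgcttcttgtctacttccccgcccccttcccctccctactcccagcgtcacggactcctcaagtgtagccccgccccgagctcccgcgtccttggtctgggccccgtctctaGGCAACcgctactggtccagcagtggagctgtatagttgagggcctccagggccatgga
Tmem212: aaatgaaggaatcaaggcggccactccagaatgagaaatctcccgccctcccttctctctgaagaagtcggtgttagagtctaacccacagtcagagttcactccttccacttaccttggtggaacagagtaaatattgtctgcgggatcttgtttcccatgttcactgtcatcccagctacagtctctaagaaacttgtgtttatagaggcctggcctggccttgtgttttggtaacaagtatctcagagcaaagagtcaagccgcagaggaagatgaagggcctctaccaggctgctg

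The core stood in promoters of members of either direction. Cfap44 has 2 exact copies of this half-site, Dnah7b and Cfap46 have 1 each and Tmem212 has none, which does not say which of them carry a full X-box. Of the members called lower in a comparison with AG (the test is given below), 5 of the 9 with a window held the core, against 2 of the 4 called higher, 8 of the 21 tested and not called, and 6 of the 15 not tested.

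Most members were read at low levels. The mean over the 9 libraries had a median of 12.6 normalized reads over the 57 members, beside 62.5 over all genes. There were 33 members with reads in all 9 libraries, 13 that stayed under 10 normalized reads in every library, and 13 that reached 100 in every AG library. Genes with several RefSeq transcripts were read low in this table as a class: the median of the mean was 25.1 for the 46 members with 1 transcript and 2.25 for the 11 with several. A low value of the latter is therefore not given as low expression. Per length, as normalized reads per kb of transcript, 55 members could be placed. The median level in AG was 3.89 per kb, with 36 members under 10 and 9 at 100 or more. Foxj1 stood at 882 per kb in AG, while the highest of the 7 inner arm heavy chains reached 7.64 per kb and the highest of the 5 outer arm heavy chains 5.87. The other 8 members at 100 per kb or more in AG were Cfap20, Cfap36, Cfap100, Cfap298, Cfap410, Dnaaf2, Rsph3b and Rsph9. In BS and in OB the same 8 were at 100 per kb or more, with Spag4 in place of Foxj1, and the medians were 2.45 and 3.98 per kb.

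**Figure D1:**
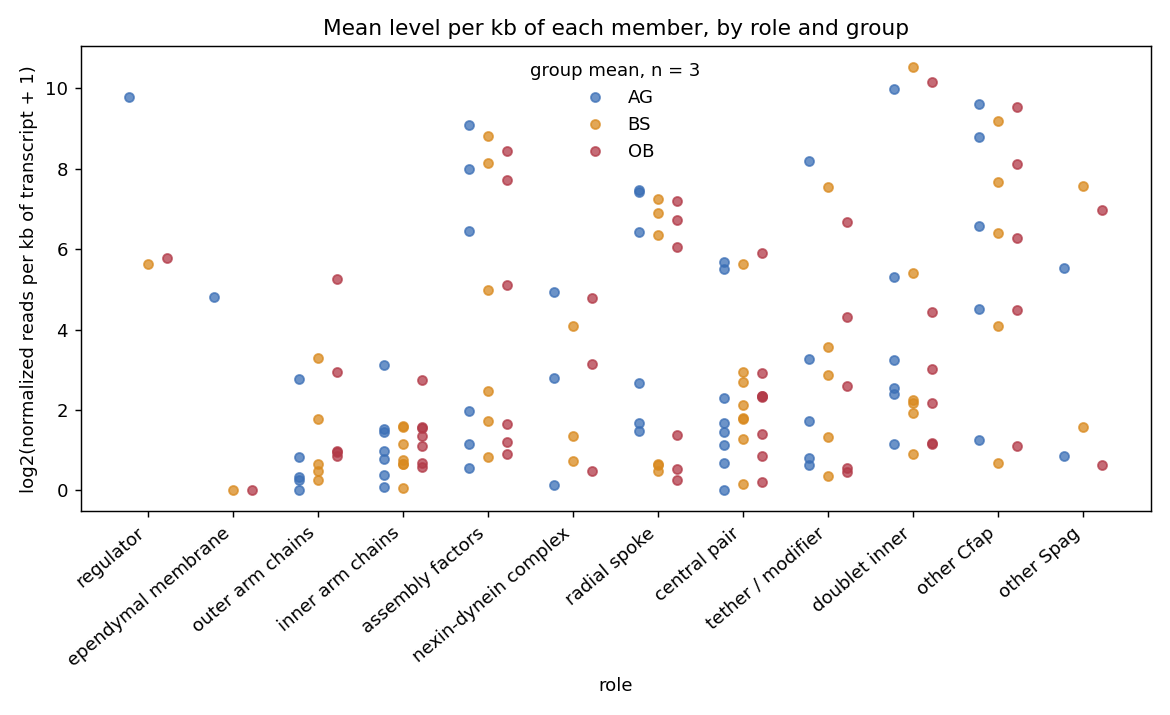
Mean level of each member with a transcript length (points, n = 3 libraries a group), on a log2 scale of normalized reads per kb of transcript plus 1, by role and group. Foxj1, the only regulator, is at 882 per kb in AG against 48.8 in BS and 53.8 in OB, while every inner arm heavy chain stays under 10 in all 3 groups.

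Libraries of a group were not alike. In the tumour groups the SD of log2 values between libraries had a median over the 38 tested members of 0.51 in BS and 0.61 in OB, against 0.21 in AG, and 0.47, 0.48 and 0.12 over all tested genes. OB_257 stood apart in several markers: Sox9 was at 25.4 there and between 2328 and 5229 in the other 8 libraries, and Gja1 was at 1.11 there and between 369 and 5396 in the others. BS_287 was counted as the highest of the 6 tumour libraries for 13 of the 38 tested members, against 2 to 7 in each of the others. The 13 include Tmem212, which had 0 reads in all 6 and was assigned to BS_287 as a tie. Results that rest on 1 of these libraries are given with and without it.

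The label astroglia was checked against 7 marker genes. Gfap, the filament protein of astrocytes, was at 0.834 to 3.27 in AG and Aqp4, their water channel, at 1.09 to 1.97, both near 0. Aldh1l1 was at 5.003 to 5.91. Slc1a3, a glutamate transporter, was at 753 to 855, Gja1, a gap junction protein, at 4961 to 5396, and the transcription factor Sox9 at 2328 to 2947 in AG. S100b, a calcium-binding protein of glia, was at 25.01, 25.6 and 27.2 in AG, at 5.87, 87.5 and 639 in BS and at 6616, 179.9 and 5555 in OB. The AG libraries thus held some genes of the astroglial lineage, while 2 defining markers of mature astrocytes were read near 0. As above, such a low value is not given as low expression where a gene has several RefSeq transcripts. Of the 7 markers, 4 reached 10 normalized reads in each AG library, 4 to 5 in BS libraries and 3 to 4 in OB libraries. In OB against AG, limma called S100b higher (log2 change 6.13 ± 1.76 SE, adjusted p = 0.0265) and Gja1 lower (-5.97 ± 1.92, adjusted p = 0.0412), calls lost in 5 and in 7 of 22 alternatives. Without OB_257 the change of Gja1 was -3.33 and the call held (limma adjusted p = 0.00999). That of S100b was then 5.22 and its call was lost (adjusted p = 0.0712). The summed level of the 7 markers ran from 8602 to 8693 in AG, from 17386 to 30920 in BS and from 6731 to 34882 in OB, and its part in the changes of the members was not tested.

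Changes were tested with limma on log2(value + 1), with 1 mean for each group in a fit of all genes, and a gene was called at a Benjamini-Hochberg adjusted p under 0.05 over all 10576 genes tested. A gene was tested if it reached 10 normalized reads in at least 3 libraries. That left 38 of the 57 members, and the 19 others are accounted for near the end. In the comparison of OB with AG, limma called 14 of the 38 tested members (36.8%), 3 higher and 11 lower. Of all genes tested, 34.9% were called in that comparison, 16.0% higher and 19.0% lower. In BS against AG, 8 of the 38 were called (21.1%), 2 higher and 6 lower, where 35.1% of all genes were, 15.6% higher and 19.5% lower. The share of members called was thus near the background in OB and under it in BS. The counts by role below stand beside these same shares of all genes. With at most 6 tested members a role, they are not read as results about a structure. The median log2 change of the tested members was -0.39 in OB and -0.49 in BS, beside -0.01 and -0.03 over all genes. Both comparisons share the AG libraries, and 16 members were called in at least 1 of them. 3 tested members (Dnah7a, Rsph4a and Tmem212) passed the filter through AG alone and so had to differ. No support is taken from their calls, which are given as a description. Cfap46, Dnah1 and Dnah8 reached 10 normalized reads in no AG library, and Cfap44 in no OB library. In their called comparisons they thus passed the filter on the side where they were higher, and these calls are partly set by the filter. The count for BS was 14 without OB_257 and 15 (39.5%) in a fit of BS and AG alone. In that last fit 4431 of all 10576 genes were called, so that the share in BS moved with the fit.

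**Figure D2:**
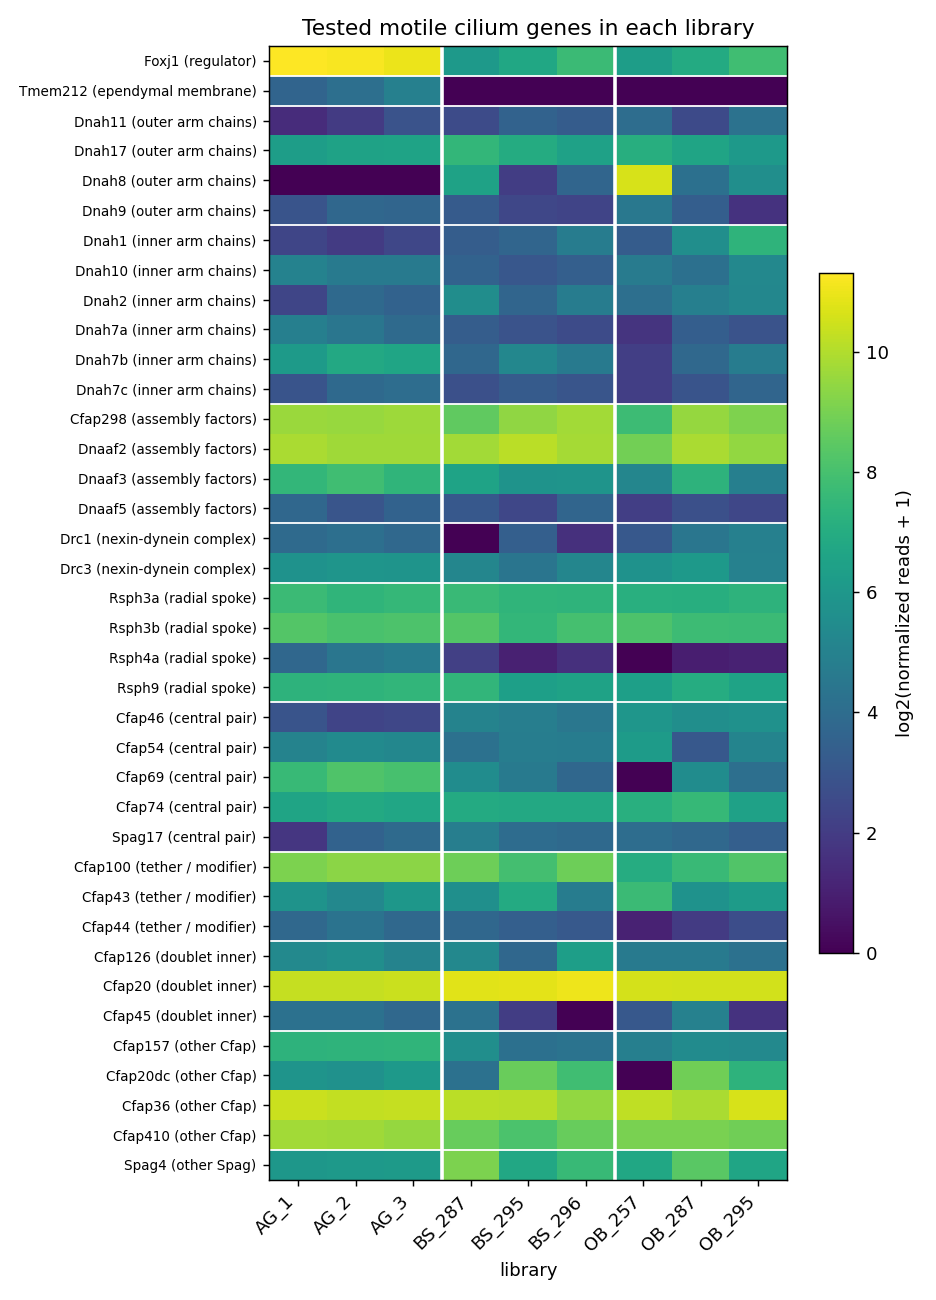
Level of each of the 38 tested members (rows, by role) in each of the 9 libraries (columns), as log2(normalized reads + 1). Foxj1 falls from between 2042 and 2539.7 normalized reads in AG to between 67.1 and 228 in the tumour libraries, Dnah8 is read in tumour libraries only, and most other rows change little or differ between libraries of 1 group.

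Foxj1, the regulator, was lower in both tumour groups than in AG. It was at 2539.7, 2358 and 2042 normalized reads in AG_1, AG_2 and AG_3, at 67.1, 107 and 209.9 in BS_287, BS_295 and BS_296, and at 77.4, 118 and 228 in OB_257, OB_287 and OB_295. All 6 tumour libraries lay far below all 3 AG libraries and the ranges of BS and OB overlapped. Means were 2313 ± 252 in AG, 128 ± 73.7 in BS and 141 ± 78.1 in OB (SD, n = 3 libraries each). Foxj1 thus fell 18.1-fold in BS (log2 change -4.32 ± 0.48 SE, adjusted p = 0.000265) and 16.4-fold in OB (-4.16 ± 0.48, adjusted p = 0.000325). Between OB and BS it differed by 0.16 ± 0.48 on the log2 scale (adjusted p = 0.948). In bulk samples, fewer cells that express a gene and less RNA per cell cannot be told apart, here and for every gene below.

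Tmem212, a membrane protein gene known as a marker of ependymal cells, was read in AG only. It was at 11.7, 16.8 and 29.4 in the AG libraries and had 0 reads in all 6 tumour libraries. Against a floor of 3 reads per library it was at least 6.67-fold lower in BS and at least 6.13-fold lower in OB. It passed the filter through AG alone and so had to differ, so that its calls in both groups are a description only. Reads of Tmem212 and of the overlapping gene Gm26040 could not be told apart, since the strand setting of the counting is not given in the sources used here.

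**Figure D3:**
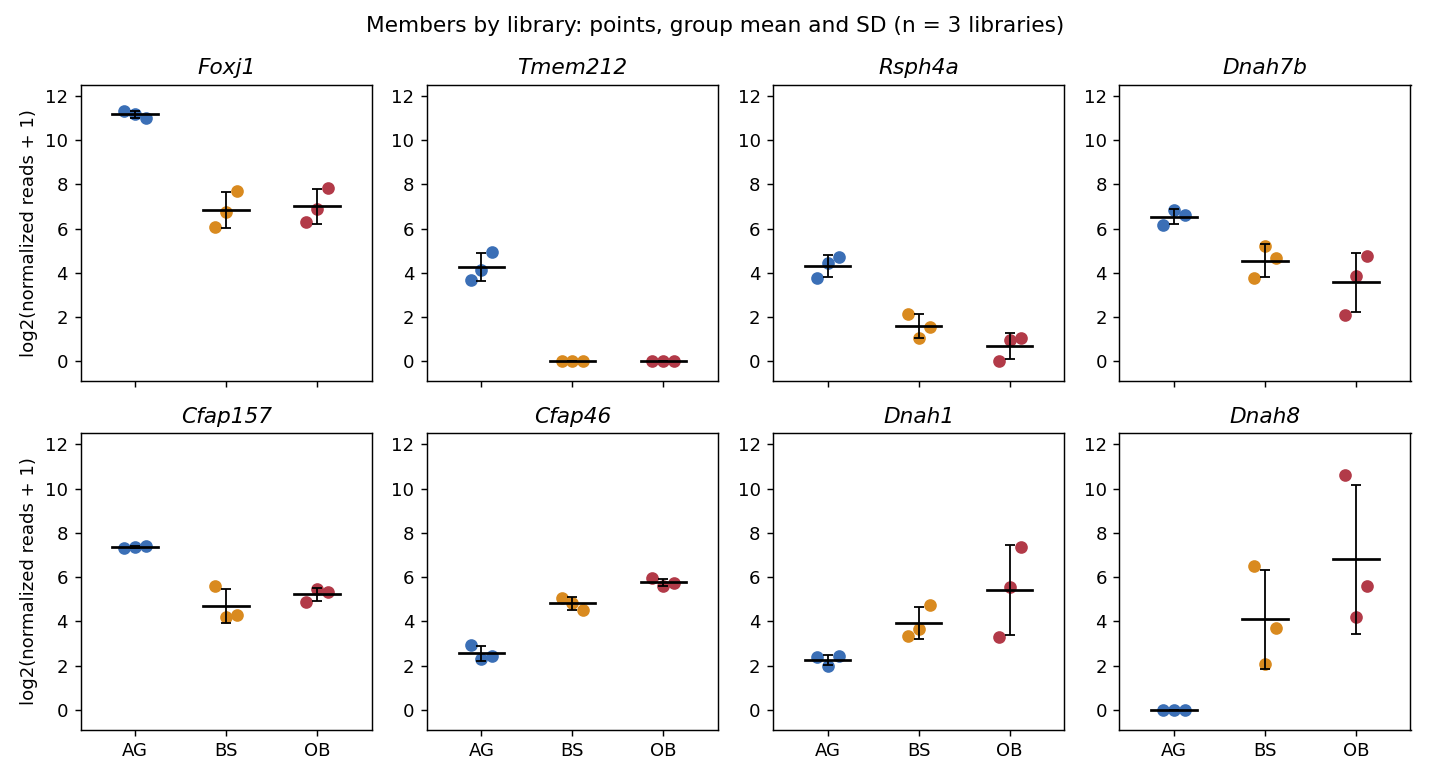
Levels of 8 members in each library on a scale of log2(normalized reads + 1), with the group mean and SD (bars, n = 3 libraries). Foxj1, Tmem212, Rsph4a, Dnah7b and Cfap157 lie lower in the tumour groups and Cfap46, Dnah1 and Dnah8 higher, with the widest spread for Dnah8, from 17.1 to 1562 within OB.

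The dynein heavy chains, the motors themselves, did not move in 1 direction. There were 12 of them in the table and 10 were tested. Among the 4 tested outer arm chains, 1 rose in OB and none was called in BS. Among the 6 tested inner arm chains, 1 rose and 2 fell in OB, and 1 fell in BS.

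Dnah8, an outer arm heavy chain known from the sperm tail, had 0 reads in all 3 AG libraries. It was at 90.6, 3.20 and 11.8 in BS_287, BS_295 and BS_296 and at 1562, 17.1 and 47.8 in OB_257, OB_287 and OB_295. Every tumour library was above AG, and OB_257 was far above any other library. The change was called in OB (log2 change 6.80 ± 1.64 SE, adjusted p = 0.0127) and was at least 186-fold against the floor of 3 reads per library. Without OB_257 the bound was at least 11.2-fold and the call held (adjusted p = 0.0137). In BS the values gave a bound of at least 12.1-fold that did not pass the test (adjusted p = 0.0851), and without BS_287 the bound was at least 2.58-fold. Dnah8 overlaps the genes Gm24661 and Gm41561, whose reads were not separable from it.

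The other 3 tested outer arm chains were not called. Dnah17, another chain of the sperm tail, was at 76.7 to 94.7 in AG, at 87.7 to 180.3 in BS and at 66.3 to 134 in OB. Dnah9 and Dnah11, chains of airway and ependymal cilia, ran from 2.17 to 22.1 and from 1.67 to 18.5 over the 9 libraries. Dnah5, the chain on which outer arms of such cilia depend, was not tested: it was at 32.6 in OB_295 and at 7.61 or less in the other 8 libraries. The levels of Dnah17 and Dnah11 can include reads of the overlapping genes Pgs1 and Cdca7l.

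Dnah7b, an inner arm heavy chain, fell in OB. It was at 71.7, 112 and 98.01 in AG, at 12.6, 36.3 and 24.6 in BS and at 3.32, 13.3 and 26.1 in OB. No tumour library reached the lowest AG library. The fall was 6.60-fold in OB (log2 change -2.98 ± 0.68 SE, adjusted p = 0.0102), and 11.3-fold without OB_295. In BS the change of -1.99 missed the threshold (adjusted p = 0.0518). Dnah7a, its close copy, was at 28.3, 20.7 and 14.2 in AG, at 9.23, 6.40 and 4.93 in BS and at 2.21, 9.52 and 6.52 in OB. It passed the filter through AG alone and so had to differ, and its call in OB (-1.75 ± 0.52, adjusted p = 0.0312) was lost without OB_257 (adjusted p = 0.0652), OB_295 (0.0546), AG_1 (0.110) or AG_2 (0.0877). The third copy, Dnah7c, was at 6.67 to 15.2 in AG and 3.32 to 12.0 in the tumour libraries and was not called. The copies are nearly identical, so that the counting could have moved reads between them or left shared reads out.

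Dnah1, an inner arm heavy chain needed in sperm, went the other way. It was at 4.17, 2.96 and 4.36 in AG, at 9.23, 11.7 and 25.6 in BS and at 8.84, 46.6 and 163 in OB. All tumour libraries were above all AG libraries, with OB_295 far above the rest. Dnah1 rose 19.0-fold in OB (log2 change 3.15 ± 0.91 SE, adjusted p = 0.0274), and its change in BS was 1.66 (adjusted p = 0.192). Without OB_295 the ratio was 7.25 and the call was lost (adjusted p = 0.0615), as it was without OB_287 (0.0647) or without AG_1, AG_2 or AG_3 (0.0740, 0.0862 and 0.0714).

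Dnah10, a heavy chain of the double-headed inner arm, fell in BS and not in OB. It was at 31.7, 23.7 and 24.0 in AG, at 10.9, 7.47 and 9.85 in BS and at 25.4, 17.1 and 38.0 in OB. The BS libraries lay below the other 6, and OB overlapped AG. The change was -1.40 ± 0.39 on the log2 scale in BS (adjusted p = 0.0240) and -0.03 in OB (adjusted p = 0.957). The BS call was lost without BS_295 (adjusted p = 0.0626), AG_1 (0.0924), AG_2 (0.0653) or AG_3 (0.0644). The direct comparison of OB with BS gave 1.37 ± 0.39 (adjusted p = 0.341), which does not show that the tumour groups differ. Dnah2, its partner in the same arm, was at 4.17 to 13.8 in AG, at 11.7 to 45.3 in BS and at 16.6 to 37.0 in OB and was not called. Dnah6 was not tested: it was at 57.5 in OB_257 and at 1.68 or less in the other 8 libraries.

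Of the factors that assemble dynein arms, 1 of 4 tested members was called, in OB. Dnaaf3 was at 181, 232 and 168 in AG, at 92.3, 55.5 and 57.1 in BS and at 35.4, 158 and 28.3 in OB. The tumour libraries were below AG, with OB_287 just under the lowest AG value. Dnaaf3 fell in OB (log2 change -1.80 ± 0.61 SE, adjusted p = 0.0486), the member nearest to the threshold. The OB ratio was 2.62-fold lower and 6.08-fold lower without OB_287, and the call was lost without any AG library, without OB_257 or without OB_295 (adjusted p from 0.106 to 0.143). In BS the change was -1.51 (adjusted p = 0.0854). Dnaaf2, which acts with chaperones in the same step, was at 833 to 932 in AG, at 845 to 1117 in BS and at 476 to 941 in OB and was not called. Cfap298 was at 757 to 804 in AG, at 379 to 859 in BS and at 212 to 726 in OB, with its lowest value in OB_257, and was not called either. Dnaaf5 stayed between 3.32 and 12.51.

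The nexin-dynein regulatory complex, which links neighbouring doublets, had 2 tested members and no call. Drc1 was at 14.2, 16.8 and 13.1 in AG, at 0, 9.60 and 1.97 in BS and at 7.74, 20.9 and 29.3 in OB (BS change -2.30, adjusted p = 0.0610). Drc3 was at 54.2 to 58.1 in AG, at 20.3 to 36.1 in BS and at 30.4 to 68.5 in OB. Both were lower in the BS libraries than in any AG library, and in OB both overlapped AG. Drc3 overlaps Tom1l2.

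The radial spoke was divided. Rsph4a, a protein of the spoke head in motile cilia, was lower in both tumour groups. It was at 12.51, 20.7 and 25.05 in AG, at 3.35, 1.07 and 1.97 in BS and at 0, 0.952 and 1.09 in OB. All tumour libraries were below all AG libraries. The mean was 9.11-fold lower in BS (log2 change -2.72 ± 0.48 SE). In OB, where only 2 reads were counted in all, the ratio was 28.6 (exact 95% interval of counting error 7.57 to 241) and the log2 change -3.62 ± 0.48. Without OB_257 that ratio was 19.1. Rsph4a too passed the filter through AG alone and had to differ, so that its calls in both groups are a description only.

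None of the other 3 tested spoke members was called. Rsph9, another head protein, was at 160.1 to 171 in AG, at 82.1 to 171 in BS and at 81.8 to 126 in OB, where every library was below AG (adjusted p = 0.126). The stalk protein gene Rsph3b was at 270.0 to 307 in AG, at 180.3 to 306 in BS and at 208 to 279.6 in OB. Its near-identical copy Rsph3a was at 169.5 to 206, 162 to 200.4 and 135 to 159.8, again with every OB library below AG (adjusted p = 0.246). In BS all 3 overlapped AG, as Rsph3b did in OB. Rsph9 overlaps Mrps18a.

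Among the 5 tested members of the central pair apparatus, 1 rose and 1 fell in OB and 1 rose in BS. Cfap46, known from Chlamydomonas as a protein of a central pair projection, was at 6.67, 3.94 and 4.36 in AG, at 32.7, 27.7 and 21.7 in BS and at 60.8, 47.6 and 52.2 in OB. The 3 groups did not overlap. Cfap46 rose 5.49-fold in BS (log2 change 2.25 ± 0.35 SE, adjusted p = 0.00151) and 10.7-fold in OB (3.21 ± 0.35, adjusted p = 0.000228). OB was above BS by 0.95 ± 0.35, which was not called (adjusted p = 0.451). Reads of predicted genes that overlap Cfap46 were not separable from it.

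Cfap69, a central pair protein of the sperm tail that is also found in olfactory cilia, was at 198, 293 and 262 in AG. It was at 44.4, 23.5 and 12.8 in BS and at 0, 43.8 and 16.3 in OB, so that all tumour libraries were below AG and OB_257 had no read. It fell in OB (log2 change -4.76 ± 1.22 SE, adjusted p = 0.0165, 12.53-fold lower by the means). The ratio was 30.8 without OB_287. Without OB_257 it was 8.35 and the log2 change -3.16 (adjusted p = 0.00517). The call was lost without AG_2 (adjusted p = 0.0570) or AG_3 (0.0551). In BS the mean was 9.32-fold lower and the change of -3.32 did not pass the test (adjusted p = 0.0647), but it did without OB_257.

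The other 3 tested central pair members were not called. Cfap74 was at 95.9 to 115 in AG, at 111 to 119.9 in BS and at 88.0 to 192 in OB, and overlaps Gabrd. Cfap54, which mouse ependymal and airway cilia need, was at 32.5 to 41.4 in AG, at 17.6 to 26.7 in BS and at 7.61 to 74.1 in OB. Spag17 was at 2.501 to 14.2 in AG and 9.78 to 27.7 in the tumour libraries.

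Of the proteins that tether or modify the inner arms, 2 of 3 tested members fell in OB and none was called in BS. The shares of all genes called were 34.9% in OB and 35.1% in BS. Cfap100, known from Chlamydomonas as a modifier of inner arms, was at 537, 642 and 652 in AG, at 455, 246 and 452 in BS and at 127, 202 and 302 in OB. It fell in OB (log2 change -1.61 ± 0.36 SE, adjusted p = 0.00939), and its change in BS was -0.71 (adjusted p = 0.162). Cfap44, part of the tether that holds an inner arm to its doublet, was at 13.3, 18.7 and 13.1 in AG, at 12.6, 9.60 and 7.88 in BS and at 1.11, 2.85 and 5.43 in OB. OB was below every other library for Cfap44, and the BS libraries were just under AG. Cfap44 fell in OB (-2.08 ± 0.47, adjusted p = 0.00931; 4.80-fold, and 7.60-fold without OB_295), and its change in BS was -0.55 (adjusted p = 0.401). Cfap43, its partner in the tether, was not called and was at 37.5 to 62.1 in AG, at 25.6 to 119 in BS and at 53.3 to 208 in OB, the highest value in OB_257.

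Inside the doublets, 1 of 3 tested members was called. Cfap20, a protein of the junction between the tubules of a doublet, was at 1277, 1259.5 and 1369 in AG, at 1811, 1863 and 2078 in BS and at 1509.7, 1466 and 1466 in OB. The 3 groups did not overlap, and the change was small: 0.56 ± 0.13 on the log2 scale in BS (adjusted p = 0.0124) and 0.19 in OB (adjusted p = 0.306). The BS call was lost without AG_1 (adjusted p = 0.0530) or AG_2 (0.0590). Cfap126 was at 32.7 to 47.3 in AG, at 12.8 to 78.8 in BS and at 17.4 to 23.8 in OB. Cfap45 was at 13.1 to 17.7 in AG and between 0 and 30.5 in the tumour libraries. Neither was called.

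Among the 4 tested Cfap genes outside these structures, 2 fell in both tumour groups. Cfap157, known in the mouse as a Foxj1 target that sperm tails need, was at 160.1, 163 and 168 in AG, at 47.0, 17.1 and 18.7 in BS and at 28.7, 42.8 and 39.1 in OB. No tumour library came near the AG level. It fell 5.93-fold in BS (log2 change -2.67 ± 0.42 SE, adjusted p = 0.00164; 9.14-fold without BS_287) and 4.43-fold in OB (-2.14 ± 0.42, adjusted p = 0.00500). Reads of overlapping genes could not be told apart from those of Cfap157. Cfap410, a protein of the base of primary cilia, was at 857, 827 and 727 in AG, at 412, 278 and 409 in BS and at 521, 528 and 466 in OB. It fell 2.19-fold in BS (-1.15 ± 0.21, adjusted p = 0.00330) and 1.59-fold in OB (-0.67 ± 0.21, adjusted p = 0.0360). The OB call was lost when any 1 AG or OB library was left out (adjusted p from 0.0519 to 0.123), with quantile or upper-quartile scaling and with edgeR.

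Cfap36 and Cfap20dc were not called. Cfap36 was at 1249.7 to 1357 in AG, at 715 to 1115 in BS and at 925 to 1565 in OB, and overlaps Ppp4r3b. Cfap20dc varied most of all: it was at 51.2 to 67.5 in AG, at 17.6, 422 and 229 in BS and at 0, 463 and 158 in OB. BS_287 and OB_257 were below AG and the other 4 tumour libraries above it. Spag4, a gene of the nuclear envelope of sperm that bears the Spag name only, was at 61.7 to 69.7 in AG, at 109.9 to 533 in BS and at 99.99 to 344 in OB. All 6 tumour libraries were above AG, and limma did not call it (BS adjusted p = 0.0633), whereas edgeR and DESeq2 called it in BS.

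**Figure D4:**
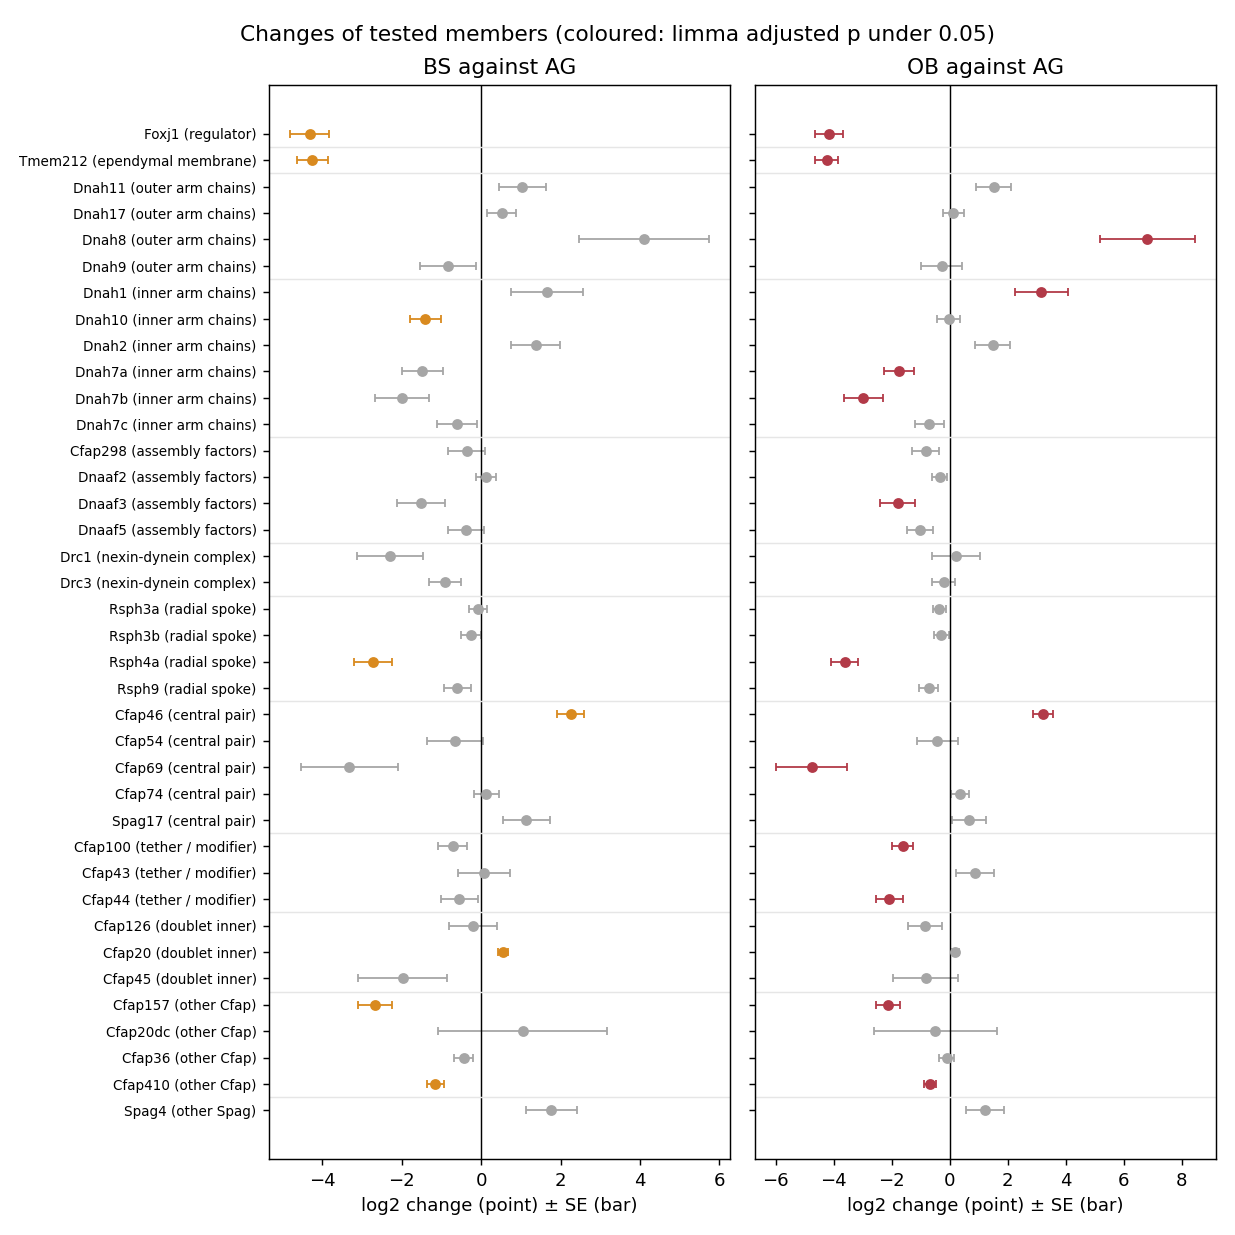
Log2 change of the 38 tested members in BS (left) and OB (right) against AG, with the SE as a bar; colour marks an adjusted p under 0.05 and grey the rest. The called members lie on both sides of 0, from -4.76 for Cfap69 to 6.80 for Dnah8 in OB and from -4.32 for Foxj1 to 2.25 for Cfap46 in BS.

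Directly between OB and BS no member was called. By limma, 0 of the 38 passed, where 0.0% of all 10576 genes did, and 7 had an unadjusted p under 0.05 (18.4%, beside 9.64% of all genes). They were Cfap20, Cfap44 and Cfap100, lower in OB, and Cfap46, Cfap410, Dnah10 and Drc1, higher in OB. By edgeR 0 members were called and 7 had an unadjusted p under 0.05 (18.4%, beside 10.5% of all genes). By DESeq2 0 were called and 8 had one (21.1%, beside 11.8% of all genes), where DESeq2 called 233 of the 10576 genes. The smallest adjusted p of a member by limma was 0.341. The median log2 change of OB against BS over the members was -0.07, beside 0.01 over all genes.

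The 19 members that were not tested include 11 with 1 RefSeq transcript: Cfap52, Cfap57, Cfap73, Cfap77, Cfap161, Dnaaf1, Dnah5, Dnah6, Drc7, Spag6 and Spag6l. The other 8 (Cfap61, Cfap97, Cfap206, Dnaaf4, Spag1, Spag7, Spag8 and Spag16) have several transcripts, so that their low values say little. Spag6l, a central pair gene, was at 3.94 to 4.36 in AG and at 0 in 4 of the 6 tumour libraries, with 0.839 in BS_287 and 1.09 in OB_295. Its close copy Spag6 was at 4.36 to 6.67 in AG, at 7.47 to 33.5 in BS and at 1.90 to 17.7 in OB. Cfap52 was at 7.62 to 14.8 in AG and at 2.13 or less in the tumour libraries other than OB_287, where it was at 21.9.

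Summed over the 57 members, the level ran from 9827 to 10269 in AG, from 7086 to 7319 in BS and from 6935 to 7290.1 in OB. Foxj1 made up most of that gap: without it the sums ran from 7729 to 7785 in AG, from 6979 to 7252 in BS and from 6707 to 7213 in OB. The 7213 was that of OB_257, where the outer arm heavy chains, mostly Dnah8, summed to 1737. They summed to 135 in OB_287 and 167 in OB_295.

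Genes of motile cilia that do not carry the 7 stems were described from a second list. It had 35 genes in the table and 20 were tested. In OB, 2 rose and 5 fell, and in BS likewise 2 rose and 5 fell. That is 35.0% of the tested genes in either comparison, close to the 34.9% and 35.1% of all genes. Hydin and Ttc12 were among the called genes with the highest level. Hydin, a central pair protein whose loss gives hydrocephalus in mice, was at 2.501, 2.96 and 0 in AG, at 5306, 306 and 204 in BS and at 1.11, 675 and 44.6 in OB. It rose in BS (log2 change 8.17 ± 2.01 SE, adjusted p = 0.0141), by 6.71 without BS_287, while OB_257 was as low as AG and OB was not called (adjusted p = 0.150). Without AG_3 the BS call was lost (adjusted p = 0.0561), and DESeq2 gave Hydin no adjusted p. Hydin reached 10 normalized reads in no AG library. It too passed the filter on the side where it was higher, and its BS call is partly set by the filter. Hydin has several overlapping predicted genes, and its difference between OB and BS was not called (adjusted p = 0.551).

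Ttc12, an assembly factor of dynein arms, was at 587, 592 and 580.4 in AG, at 23.5, 5.33 and 24.6 in BS and at 207, 52.3 and 30.4 in OB. It fell in BS (-5.21 ± 0.76 SE, adjusted p = 0.00108) and in OB (-3.06 ± 0.76, adjusted p = 0.0143).

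Genes of the primary cilium and of transport along cilia, which non-beating cilia use too, were described for comparison. The list had 48 genes in the table, of which 36 were tested. In OB 1 rose and 13 fell, and in BS 2 rose and 11 fell, which is 38.9% and 36.1% of those tested, beside 34.9% and 35.1% of all genes. Their median log2 change was -0.61 in OB and -0.52 in BS. Their summed level ran from 48665 to 49351 in AG, from 30517 to 35489 in BS and from 29699.8 to 33913 in OB. Pkd2, a polycystin channel of primary cilia, was at 4834 to 5132 in AG, at 1572 to 2555 in BS and at 1585 to 2116 in OB, and fell in BS (-1.39 ± 0.21 SE, adjusted p = 0.00120) and OB (-1.42 ± 0.21, adjusted p = 0.00107). Its partner Pkd1 was at 9329 to 9794 in AG, at 5284 to 5959 in BS and at 3214 to 5797 in OB, and fell in OB (-1.20 ± 0.21, adjusted p = 0.00257) and in BS (-0.79 ± 0.21, adjusted p = 0.0185). The Pkd1 call in BS was lost without any 1 AG library (adjusted p from 0.0564 to 0.0654). Ift80, a subunit of the train that moves cargo up the cilium, fell in BS (-1.47 ± 0.26, adjusted p = 0.00287) and OB (-0.94 ± 0.26, adjusted p = 0.0223). The OB call of Ift80 was lost without any AG library, OB_257 or OB_295 (adjusted p from 0.0502 to 0.0724). Tulp3, which brings receptors into cilia, had changes of -0.67 ± 0.22 in BS (adjusted p = 0.0436) and -0.66 ± 0.22 in OB (adjusted p = 0.0462), calls lost in 10 and in 12 of 22 alternatives.

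Of 10 markers of ependymal cells 6 were in the table and 5 tested, and limma called 2 of them, the members Foxj1 and Tmem212. The median log2 change of the 5 was -3.54 in OB and -2.97 in BS. Over the 3 tested markers outside the members it was -1.36 in OB and 0.02 in BS, and 0 of the 3 were called. Dynlrb2, a dynein light chain of motile cilia, had reads in 1 AG library (1.09) and reached 13.3 in OB_287. Ecrg4 was at 33.5 to 48.4 in AG, at 17.1 to 182 in BS and at 10.9 to 18.1 in OB. All OB libraries were below AG for Ecrg4 and BS overlapped it, and it was not called (adjusted p = 0.220 in OB). Mia was at 2.18 to 5.003 in AG and 2.21 to 22.8 in the tumour libraries. Cd24a, which neuroblasts also express, was at 18248 to 19406 in AG, at 11604, 1108 and 1062 in BS and at 297, 9839 and 1418 in OB. All 6 tumour libraries were below AG for Cd24a, and its log2 changes of -3.54 in OB and -2.97 in BS were not called (adjusted p = 0.0610 and 0.105). The summed level of the 6 ran from 20662 to 21522 in AG, from 1239 to 11712 in BS and from 396 to 10006 in OB, nearly all of it Cd24a. Of the markers of the choroid plexus, whose cells also carry Foxj1, 5 were in the table, and their summed level ran from 78.4 to 86.7 in AG, from 19.2 to 47.3 in BS and from 33.3 to 191 in OB. Ttr, the defining one, had 0 reads in AG and BS and was at 1.90 to 3.26 in OB. Aqp1, which other cells express too, made up most of that sum in AG. It was called lower in BS (adjusted p = 0.0327), a call lost in 6 of 22 alternatives (adjusted p up to 0.0915). The part of these cell types in the changes of the members was not tested. With 3 libraries a group, a marker that was not called is not shown to be unchanged. As 3 of the 5 tested markers were not called and members were called in both directions, these genes do not settle the name ependymal programme. It is not used here.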

How the data were processed

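RNA of 9 mouse libraries (3 each of AG, BS and OB) was made into libraries with a stranded kit and sequenced, per the labels' protocols. The submitters' processing notes list DESeq2 1.20.0, Subread 1.6.2 with featureCounts, HISAT2 2.1.0, bcl2fastq 1.8.4 and mm9, without roles. How strand and shared reads were handled, and with which annotation, is not given in the sources used here.

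Signal values for 16260 RefSeq transcripts make up the deposited table, each being its reads over the size factor of the library. Undoing the factor gave whole reads for 100.0% of values (tolerance 0.05 reads). Names came from the RefSeq table of GRCm38.p6 (16202 rows) or GENCODE (41), 17 rows stayed unnamed and were left out, and rows were added per symbol. A symbol with a number after its letters (1 gene, Cfap97d2) was not taken as a member.

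limma 3.58.1 in R 4.3.3 was fitted to log2(value + 1) with a variance trend, two-sided, on genes with 10 normalized reads in at least 3 libraries. Fold changes are ratios of mean normalized reads; log2 changes with a pseudocount of 1 understate changes of low genes. edgeR 4.0.16 on the recovered reads called 3724 genes between OB and AG, 3679 between BS and AG and 0 between the tumour groups. DESeq2 1.42.0 was a further alternative. The fit was tested on simulated data. Floors were 3 reads per library, equal to 2.91 normalized reads in AG, 2.89 in BS and 3.14 in OB. Floors and the exact (Clopper-Pearson) interval cover counting error only, since reads are not independent molecules. The members and lists were chosen with earlier results of these data known. Named were Foxj1, Tmem212 and, in each role, up to 4 called members of the highest mean, with up to 4 called genes of each other list, some of which are not reported here; other members are given by range, and those that vary between libraries were picked after their values were seen. Plots were drawn with matplotlib 3.10.9.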

Additional observations from a re-analysis of the deposited data

How the results depend on the processing

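Counts of called members moved with the filter, the groups in the fit and single libraries. In OB against AG the 14 calls became 7 of 20 tested members with a filter of 50 normalized reads, where fewer genes are tested, and 9 to 13 with 1 library left out (9 without AG_2). In BS against AG the 8 calls became 4 with that filter, 15 with only BS and AG in the fit, 14 with 1 quality weight a group, and 6 to 14 with 1 library left out (14 without OB_257). Without BS_287 and OB_257 together, an alternative chosen after seeing the data, they were 16 in BS and 15 in OB. The count over all genes moved too, to 4431 of 10576 with only BS and AG in the fit. For the filter, the weights and the left-out libraries it is not given, so those counts have no background here. The cause was not tested. BS_287 shares its title number with OB_287, and BS_295 with OB_295, and no label gives its meaning. Deviations from the group means correlated across genes at 0.069 for the former pair and 0.299 for the latter. Pairs of unlike number ran from -0.41 (BS_287 with OB_295) to 0.29 (BS_296 with OB_295), so these values do not settle what the number means. In the main fit the libraries were treated as sharing only a number. With that number as a replicate block, 1 member (Dnah1) was called in OB against BS in place of 0. No called change of a member reversed its sign in any alternative run. Changes of members that were not called did cross 0 in some runs. There were 10 such values for BS beside AG, 23 for OB beside AG and 47 between the tumour groups. The median changes of the members shifted between runs by less than their spread between libraries. As an SD, that spread was 0.279 for OB and 0.411 for BS, each beside AG. Both were smaller than the size of the median changes themselves (-0.39 and -0.49). Between the tumour groups the spread was 0.460, larger than the size of the median change (-0.07). With upper-quartile scaling the median change over all tested genes shifted from -0.01 to 0.18 (log2) in OB and from -0.03 to 0.18 in BS, and the called members were then 3 higher and 9 lower in OB and 3 higher and 6 lower in BS. Calls that held in every alternative that tested the gene were those of Foxj1, Cfap157 and Cfap46 in both tumour groups, Cfap100, Cfap44 and Dnah7b in OB, and Cfap410 in BS. The Dnah8 call in OB held in 20 alternatives, and DESeq2 gave it no p. Cfap46, Cfap44 and Dnah8 passed the filter on the side where they were higher, as given above. The Dnaaf3 call in OB was lost in 16 of 22. Depth limits members of few reads: 13 stayed under 10 normalized reads throughout.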
